A study of Mus musculus with 4 samples.

Results

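Klf2, Klf3, S1pr1, S1pr4, S1pr5 and Cd69 are 6 of the 32285 genes counted in T cells (Tc) recovered from mouse spleen after allogeneic hematopoietic cell transplantation, and they act on whether a Tc leaves lymphoid tissue. They were selected by measured values of these data, since their levels differ between Tc states, so their levels across states are given as a description with no test. KLF2 is a zinc finger transcription factor of quiescent and recirculating Tc that is kept on by FOXO1 and switched off by antigen receptor and PI3K signaling, and it drives transcription of S1pr1. The receptors encoded by S1pr1, S1pr4 and S1pr5 sense sphingosine-1-phosphate (S1P), a lipid that is abundant in blood and lymph and scarce inside tissue, and S1PR1 guides Tc out along that gradient. CD69, an early activation protein, binds S1PR1 at the cell surface and causes its internalization, while KLF3 is a related factor that mostly represses transcription.

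Single-cell RNA-Seq was performed on Tc from the spleens of 4 BALB/c recipients, 2 per donor genotype, with 1 library per mouse. Recipients were irradiated, received C57BL/6 bone marrow and 10000 WEHI-3B acute myeloid leukemia (AML) cells, and were given 200000 donor splenic Tc on day 2, and spleens were taken on day 23 after transplantation. Donor Tc were either Havcr2fl/fl, in which the gene for TIM-3 is flanked by loxP sites and intact, or Havcr2fl/fl;E8icre/+, in which the E8i promoter drives Cre in the CD8+ lineage, so that CD4+ Tc of that genotype were not targeted. The paper describes bone marrow of the same genotype as the donor Tc, so the marrow genotype also differed between the 2 groups. The floxed gene was carried by the donor cells of both groups and not by the BALB/c recipients. All 4 mice shared the irradiation, the leukemia and the transplant procedure, and bulk pan-Tc isolation left other cells in every library. Throughout, 4 values in a row are Havcr2fl/fl;E8icre/+ replicates 1 and 2 followed by Havcr2fl/fl replicates 1 and 2.

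The 4 libraries held 4328, 3208, 1511 and 6737 barcodes with 17693991 to 55045903 UMIs (unique molecular identifiers, each one captured transcript), and 11507 cells remained after filters. Of these, 6810 were Tc, with 4279 CD8+ Tc and 1765 CD4+ Tc by their Cd8a, Cd8b1 and Cd4 UMIs. The targeted gene Havcr2 stood at 61.2, 7.86, 54.8 and 114 CPM in CD8+ Tc (the usual rate of a gene's UMIs among all UMIs summed over a class of cells in 1 library). The library labelled Havcr2fl/fl;E8icre/+ replicate 1 thus held as much Havcr2 RNA as a Havcr2fl/fl library. Which exons were floxed is not given in the sources used here. Cells were not restricted to donor cells, so recipient Tc, in which Havcr2 was not floxed, may be among those counted. Their share was not tested. The log2 difference of Havcr2 between genotypes in CD8+ Tc was −1.35 ± 0.65 (SE) and was not called (edgeR adjusted p = 0.999). Without that library it was −3.41. That library was left out for its own Havcr2 level, which left 1 library in its group, so this value is no test of the deletion. In CD4+ Tc Havcr2 stood at 55.6, 28.9, 16.8 and 49.1 CPM. Genotype values of the 6 genes in each lineage, and of Klf2 and S1pr5 within CD8+ Tc states, are therefore also given without that library. Between libraries, 28 barcodes were shared, 17 of them among the cells kept.

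All 6 genes are protein coding. In GRCm38, Klf2 (ENSMUSG00000055148) lies at chr8:72319033-72321656 on the plus strand with 3 exons, and Klf3 (ENSMUSG00000029178) at chr5:64803388-64832901 on the plus strand. Genes on the minus strand are S1pr1 (ENSMUSG00000045092) at chr3:115710433-115715072 with 2 exons, S1pr4 (ENSMUSG00000044199) at chr10:81497747-81500132 with 1 exon, S1pr5 (ENSMUSG00000045087) at chr9:21242912-21248443, and Cd69 (ENSMUSG00000030156) at chr6:129267325-129275436. Klf3 overlaps an unconfirmed same-strand transcript, C230096K16Rik, and whether this overlap affects the Klf3 counts was not tested.

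Because Klf2, Klf3, S1pr1 and S1pr4 moved together across Tc states while S1pr5 was detected almost only in 1 of them, upstream sequences are shown for comparison. The promoter set used here held no entry for S1pr1 or Cd69, so theirs are not shown. The sequences of Klf2, Klf3, S1pr4 and S1pr5 come from RefSeq (GRCm38.p6), run 5′ to 3′ on the gene's strand, and end at or before the annotated first base. Capitals mark CACCC, the core of the box that KLF factors bind, or its complement GGGTG.
Klf2, chr8:72318812-72319032, plus strand: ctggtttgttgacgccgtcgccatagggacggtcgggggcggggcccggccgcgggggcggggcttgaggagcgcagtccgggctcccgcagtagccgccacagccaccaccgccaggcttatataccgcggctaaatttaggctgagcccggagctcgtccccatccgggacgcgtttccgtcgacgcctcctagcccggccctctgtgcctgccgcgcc
Klf3, chr5:64803271-64803387, plus strand: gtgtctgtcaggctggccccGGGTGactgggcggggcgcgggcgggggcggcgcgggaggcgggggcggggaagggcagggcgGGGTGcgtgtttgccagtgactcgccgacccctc
S1pr4, chr10:81500138-81500387, minus strand: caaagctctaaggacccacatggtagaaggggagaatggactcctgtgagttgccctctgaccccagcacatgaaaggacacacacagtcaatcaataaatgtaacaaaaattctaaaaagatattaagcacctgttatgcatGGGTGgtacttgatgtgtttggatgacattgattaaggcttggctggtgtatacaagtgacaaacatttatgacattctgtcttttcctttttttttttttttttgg
S1pr5, chr9:21248444-21248693, minus strand: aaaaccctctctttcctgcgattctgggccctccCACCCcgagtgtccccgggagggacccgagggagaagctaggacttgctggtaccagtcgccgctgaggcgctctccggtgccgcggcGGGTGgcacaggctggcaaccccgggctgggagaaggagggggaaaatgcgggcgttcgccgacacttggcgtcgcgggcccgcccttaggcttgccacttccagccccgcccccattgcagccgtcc
In the 250 bases before each RefSeq start, searched on both strands, CACCC was found 1 time for Klf2 (in bases inside the annotated gene and so not shown), 5 times for Klf3 (2 of them in the bases shown), 1 time for S1pr4 and 2 times for S1pr5. It was present in 52.0% of all 32851 promoter windows of that length, so its presence does not set these genes apart. The longer KLF motif CCACACCC (3.2% of windows), the FOXO motif GTAAACA (3.17%) and the T-box motif AGGTGTGA (1.12%) had 0 matches in these 4 windows.

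Klf2, Klf3, S1pr1 and S1pr4 shared 1 order of mean levels across CD8+ Tc states at the top: highest in short-term effector-like cells, next in a cluster led by Klf2, Klf3, Cx3cr1, Rasa3 and S1pr1, and then in precursor exhausted-like cells. For all 4 genes the ranges of the first 2 overlapped. Short-term effector-like cells were above the next cluster in 3 of 4 libraries for Klf2, S1pr1 and S1pr4, and in 2 of 4 for Klf3. States were found by clustering with the 6 genes left out, and a cluster was named only where at least 3 markers of a class were raised. Further conditions applied to the share of the class raised, to the classes of the leading genes and to depth, so 3 raised markers did not always give a name. Precursor exhausted-like cells (595 cells) had raised Tcf7, Slamf6, Id3, Xcl1, Lef1 and Il7r, and short-term effector-like cells (218 cells) had raised Klrg1, Cx3cr1, Zeb2, Ly6c2, Klre1 and Itgb1. Effector-like cells (417), S phase-like cells (368) and G2 and M phase-like cells (353) were also named. Clusters 0 (1125 cells, led by Ckb and Itga1), 1 (751 cells, led by Ccl3, with 7 of 9 terminal exhaustion markers raised but more effector genes among its leading genes) and 4 (378 cells, with raised Cx3cr1, Ly6c2 and Itgb1) stayed unnamed. Erythroid-like (38 cells) and interferon-stimulated-like (36 cells) clusters had under 20 cells per library and were not ranked.

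**Figure D1:**
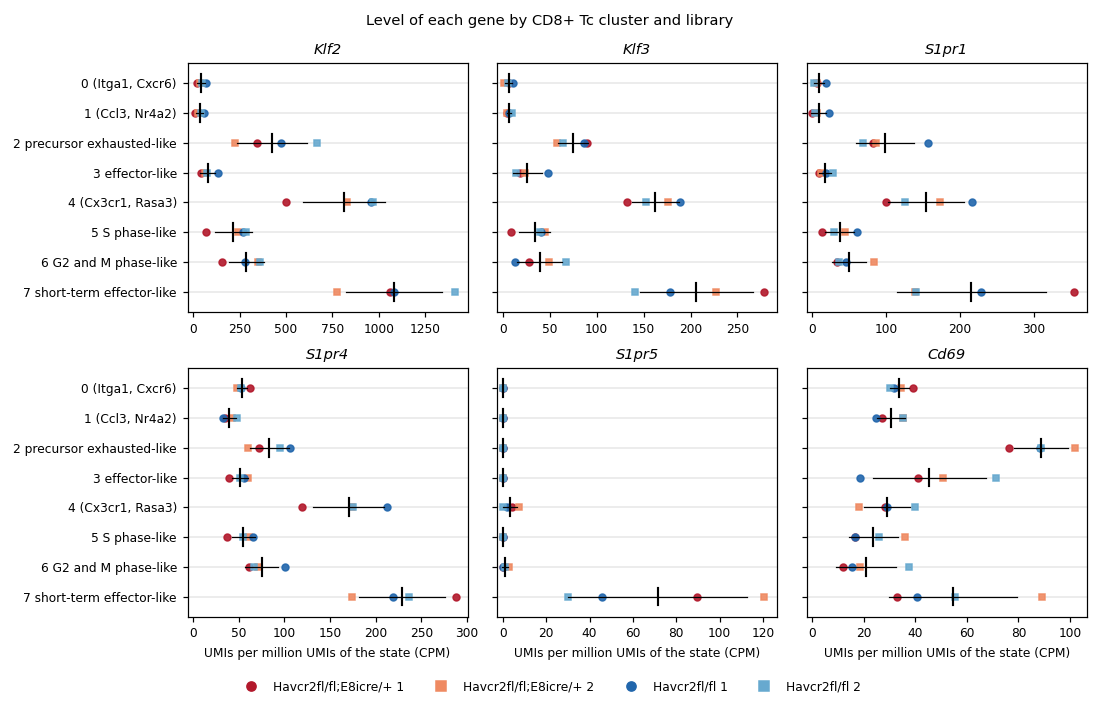
Level of each gene (CPM, linear axis) in 8 CD8+ Tc clusters, with 1 point per library colored by genotype and replicate, and a vertical bar and line for the mean and SD over 4 libraries. Klf2, Klf3, S1pr1 and S1pr4 were highest in clusters 7 and 4, S1pr5 was detected almost only in cluster 7, and Cd69 had its highest mean in cluster 2.

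Klf2 stood at 1057, 777, 1083 and 1407 CPM in short-term effector-like CD8+ Tc (mean 1081 ± 258, SD, n = 4) and at 499, 828, 959 and 970 CPM in cluster 4 (814 ± 220). Precursor exhausted-like cells had 342, 225, 474 and 665 CPM (427 ± 189). Every library of these 3 states held more Klf2 than any library of the unnamed clusters 0 and 1, which averaged 43.7 ± 21.9 and 34.4 ± 18.9 CPM. G2 and M phase-like cells (286 ± 94.0 CPM), S phase-like cells (216 ± 99.6 CPM) and effector-like cells (78.6 ± 39.2 CPM) lay between. The ranges of the libraries overlapped between each pair of neighbors in this order of 8 states, although cluster 4 exceeded precursor exhausted-like cells in 4 of 4 libraries.

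The order of the 8 states was the same in shares of cells at 1 depth. After every cell was thinned to 2000 UMIs, with 206 of 4279 CD8+ cells left out as shallower, a Klf2 UMI was found in a mean of 76.2% of short-term effector-like cells, 71.1% of cluster 4 and 36.0% of precursor exhausted-like cells, against 5.05% of cluster 0 and 4.39% of cluster 1. Erythroid-like cells of the same libraries, which should lack Klf2, had a thinned share of 0.747% and deeper cells (median 6188 to 10655 UMIs per library against 3028 to 6975 in CD8+ Tc). All these shares of CD8+ Tc states were thus above that background.

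S1pr1, whose transcription KLF2 activates, had 354, 138, 229 and 141 CPM in short-term effector-like cells (215 ± 101) and 99.7, 173, 216 and 125 CPM in cluster 4 (153 ± 51.6). It had 82.4, 86.1, 157 and 68.8 CPM in precursor exhausted-like cells (98.5 ± 39.6). In cluster 1 it was at 0, 6.81, 23.0 and 3.19 CPM and in cluster 0 at 8.56 ± 6.90 CPM, and every library of the 3 leading states lay above every library of both. The thinned share of cells with an S1pr1 UMI was 38.9%, 23.9% and 16.6% in the 3 leading states, 1.69% in cluster 0 and 1.37% in cluster 1, and the share in erythroid-like cells was 0.0801%.

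Klf3 followed with 278, 228, 178 and 141 CPM in short-term effector-like cells (206 ± 59.9), 163 ± 25.1 CPM in cluster 4 and 74.5 ± 16.0 CPM in precursor exhausted-like cells. Cluster 4 stood apart from precursor exhausted-like cells, with no overlap between libraries, and clusters 0 and 1 averaged 6.36 ± 3.70 and 6.33 ± 2.34 CPM. Erythroid-like cells express Klf3 themselves (29.4% of thinned cells), so B or plasma-like cells (median 14344 to 27689 UMIs), with 0.397% of thinned cells, were read instead. Their Klf3 was at 9.36, 14.6, 18.1 and 13.1 CPM, above the means of clusters 0 and 1, so a background for those clusters was not established. S1pr4, a receptor found widely on lymphocytes, had the smallest span of these 4 genes, with a highest mean 5.78 times the lowest: 288, 174, 219 and 236 CPM in short-term effector-like cells (229 ± 47.1), 170 ± 38.4 CPM in cluster 4, 83.6 ± 21 CPM in precursor exhausted-like cells, and 39.7 ± 6.98 CPM in cluster 1, the lowest.

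S1pr5, the S1P receptor of circulating cytotoxic cells, was detected almost only in short-term effector-like CD8+ Tc. These held 61 of its 73 UMIs in CD8+ Tc (83.6%), from 19, 27, 9 and 6 UMIs per library, or 89.7, 121, 45.8 and 30.2 CPM (71.5 ± 41.2). A UMI of S1pr5 was seen in 38 of 218 cells (17.4%, 95% Wilson interval 13.0% to 23.0%, which covers counting error only). Cluster 4 had 3.42 ± 3.16 CPM and G2 and M phase-like cells 0.982 ± 1.37 CPM. The remaining 7 clusters had 0 UMIs in 3330 cells, which allows a share of up to 0.0901% of cells with a UMI. CD4+ Tc had 3 UMIs, and the 4697 cells outside the Tc compartment had 2. S1pr5 was among the leading genes of the short-term effector-like cluster, so this restriction describes the cluster and is not a test of it.

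Cd69, the antagonist of S1PR1 at the cell surface, had another order. Among the 8 states with at least 20 cells in every library it was highest in precursor exhausted-like cells at 76.2, 102, 88.3 and 88.7 CPM (88.8 ± 10.5), followed with an overlapping range by short-term effector-like cells at 33.0, 89.3, 40.7 and 55.3 CPM (54.6 ± 24.9). Interferon-stimulated-like CD8+ Tc, left out of the order because they were only 36 cells (3 to 12 per library), had 354, 270, 249 and 122 CPM of Cd69 from 12, 14, 4 and 4 UMIs, above precursor exhausted-like cells in 4 of 4 libraries. The lowest mean was in G2 and M phase-like cells (20.8 ± 11.5 CPM), 4.26 times below the highest, and cluster 4, where Klf2 was high, had 28.9 ± 8.92 CPM. The sum of 12 genes that rise with Tc activation was 547 CPM in precursor exhausted-like cells and 564 CPM in cluster 1, and 206 and 192 CPM in cluster 4 and short-term effector-like cells, the lowest means. Their part in the Cd69 order was not tested.

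Clusters 4 and 7 together made up 596 cells, 13.9% of CD8+ Tc and 12.8% of their UMIs. They held a mean of 43.5% ± 6.06 (SD over 4 libraries) of the Klf2 UMIs, 46.6% ± 8.19 of Klf3, 42.3% ± 7.18 of S1pr1, 31.7% ± 7.11 of S1pr4 and 94.2% ± 7.03 of S1pr5. For Cd69 the share was 11.9% ± 3.56, near their share of all UMIs.

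When libraries were clustered without integration, short-term effector-like cells (then 578 cells) kept the direction of all 6 genes relative to all CD8+ Tc, but the level of Klf3 and S1pr4 in precursor exhausted-like cells relative to all CD8+ Tc turned from above (log2 ratio 0.66 and 0.16) to below (−0.24 and −0.41). Klf2 there fell from 427 to 278 CPM (log2 ratio 0.69 to 0.070), below G2 and M phase-like cells at 286 CPM in the same clustering. The place of precursor exhausted-like cells in the shared order of Klf2, Klf3 and S1pr4 therefore depends on where that cluster is drawn.

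In CD4+ Tc, Klf2, S1pr1 and S1pr4 were highest in a cluster led by Ifitm1, Ifitm2 and Ly6c2, with Klf2 also among its leading genes (cluster 3, 267 cells, unnamed), while Klf3 was highest in precursor memory-like cells (318 cells, with raised Tcf7, Slamf6, Id3, Cxcr5, Izumo1r and Lef1). Klf2 stood at 776, 828, 899 and 1182 CPM in cluster 3 (922 ± 181) and at 291, 310, 791 and 647 CPM in precursor memory-like cells (510 ± 249). Th1-like cells (596 cells) had 69.0, 68.5, 579 and 157 CPM and cytotoxic-like cells (308 cells) 52.8, 43.5, 399 and 140 CPM, in both of which Havcr2fl/fl replicate 1 was well above the other libraries. G2 and M phase-like CD4+ Tc (436 ± 86.4 CPM, 3 libraries) and regulatory-like cells (79.7 and 71.8 CPM, 2 libraries) had too few cells in the others. The G2 and M phase-like CD4+ cluster also held 6 erythroid marker genes at a summed mean of 4341 CPM.

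**Figure D2:**
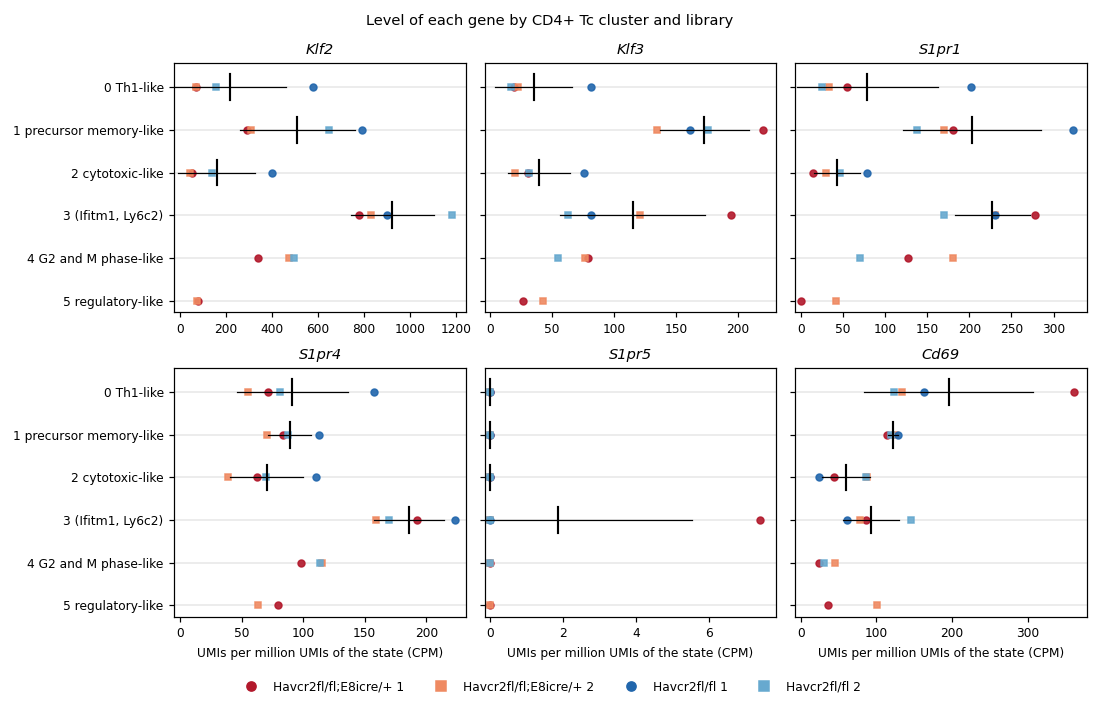
Level of each gene (CPM, linear axis) in CD4+ Tc clusters, with 1 point per library, and the mean and SD where all 4 libraries had at least 20 cells. Klf2 and S1pr1 were highest in cluster 3 and Klf3 in precursor memory-like cells. Cd69 was higher in Th1-like than in precursor memory-like cells, next by mean, in 4 of 4 libraries, and the size of its Th1-like mean depended on Havcr2fl/fl;E8icre/+ replicate 1.

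S1pr1 was at 278, 231, 230 and 170 CPM in cluster 3 of CD4+ Tc (227 ± 44.6) and at 181, 170, 323 and 138 CPM in precursor memory-like cells (203 ± 82.0), with overlapping ranges, and at 42.9 ± 27.4 CPM in cytotoxic-like cells. Klf3 had 221, 134, 162 and 176 CPM in precursor memory-like cells (173 ± 36.0) against 115 ± 58.4 CPM in cluster 3. Among the 4 states measured in all libraries, S1pr4 was the only gene of which 1 state stood apart from the next: 192, 160, 223 and 170 CPM in cluster 3 (186 ± 28.2) against 91.3 ± 45.3 CPM in Th1-like cells. Cd69 was highest in Th1-like cells, at 361, 134, 164 and 123 CPM (196 ± 112), and had 122 ± 6.29 CPM in precursor memory-like cells. Without integration, Klf2, Klf3 and S1pr1 in precursor memory-like cells turned from above all CD4+ Tc (log2 ratio 0.27, 1.17 and 0.71) to below (−1.15, −0.33 and −0.55), in a cluster of 904 cells instead of 318.

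Within a state, cells with a Klf2 UMI more often held an S1pr1 UMI. In precursor exhausted-like CD8+ Tc, thinned to 2000 UMIs, S1pr1 was found in 29.8%, 40.0%, 48.5% and 27.0% of cells with Klf2 and in 4.17%, 7.10%, 6.38% and 4.84% of cells without it, a mean difference of 30.7 percentage points that had the same sign in 4 of 4 libraries. The corresponding means were 28.3% and 10.3% for S1pr4 and 26.9% and 5.36% for Klf3, again with the same sign in 4 of 4 libraries. Cd69 was found in 11.2% of cells with Klf2 and 12.7% of cells without, and its difference ranged from −8.77 to 6.64 percentage points over the libraries. In precursor memory-like CD4+ Tc, S1pr1 was found in a mean of 48.6% of cells with Klf2 and 13.6% without. CD69 protein acts on S1PR1, and RNA of both was also counted per cell. In short-term effector-like CD8+ Tc, Cd69 was found in 0%, 0%, 8.33% and 0% of cells with an S1pr1 UMI (12 to 32 cells per library) and in 14.8%, 15.4%, 9.09% and 13.6% of cells without, lower with S1pr1 in 4 of 4 libraries. Cd69 was found in only 6.78%, 9.52%, 8.82% and 9.84% of all 59, 42, 34 and 61 thinned cells there, so these shares rest on few cells. In Havcr2fl/fl replicate 1 they were close. In Th1-like CD4+ Tc the means were 10.1% and 27.9%, lower with S1pr1 in the 3 libraries with enough cells, while in precursor exhausted-like cells the difference ranged from −13.3 to 19.8 percentage points. Cells of 1 library share their source, so these shares describe libraries and carry no test.

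**Figure D3:**
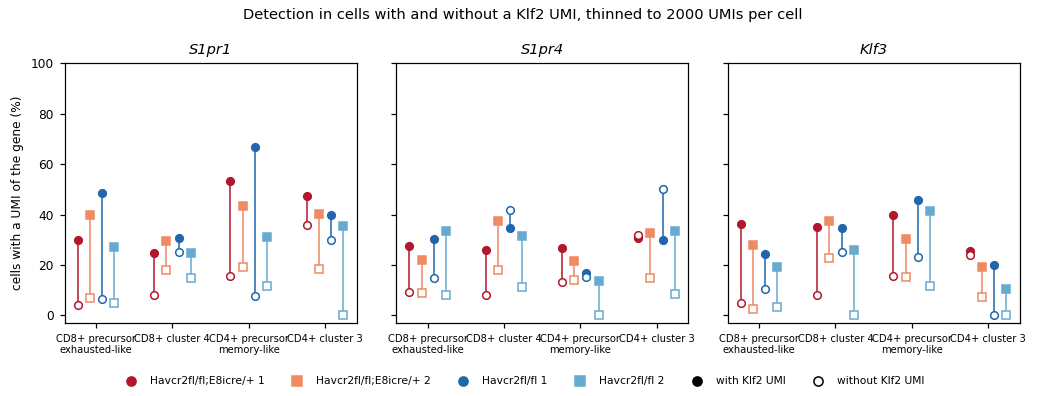
Share of cells with a UMI of S1pr1, S1pr4 or Klf3 (percent, each cell thinned to 2000 UMIs) among cells with a Klf2 UMI (filled) and without one (open), for 4 Tc states, with 1 linked pair per library. In precursor exhausted-like CD8+ Tc the filled point lay above the open one for all 3 genes in 4 of 4 libraries, and in cluster 4 of CD8+ Tc and cluster 3 of CD4+ Tc it did not for S1pr4 in every library.

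The patterns of Klf2, S1pr1 and S1pr5 were read over 53 sums (1 per state and library of CD8+ and CD4+ Tc with at least 20 cells). Each was compared with 6003 other genes and with the rest of the 6 genes by Pearson's r of log2(CPM + 10). These sums share libraries and Tc states, so r describes this set. Klf2 was most like Atp1b3 (r = 0.91), a subunit of the sodium-potassium pump, followed by Rasa3 (0.85), Cmah (0.85), Pdlim1 (0.82) and Dipk1a (0.81), and its r was 0.90 with S1pr1, 0.89 with Klf3, 0.88 with S1pr4 and 0.14 with Cd69. S1pr1 was most like Atp1b3 (0.87), Cmah (0.86), Lef1 (0.82), Gm2682 (0.82) and Itgb1 (0.82). S1pr5 was most like Zeb2 (0.83), Cx3cr1 (0.73), Klrk1 (0.69), Tbx21 (0.68) and Ly6c2 (0.67), genes of differentiated circulating effector cells, and its r with Klf2 was 0.42. It averaged only 5.87 CPM over these sums and was detected almost only in short-term effector-like cells, so these values rest mainly on that state. Zeb2, Cx3cr1 and Ly6c2 were among the markers by which that state was named.

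Measured over whole lineages, 5 of the 6 genes were lower in CD8+ Tc than in CD4+ Tc of the same mouse. In the edgeR fit across 10324 genes with the library as a block, 24.5% of genes were called at an adjusted p under 0.05, 12.4% of all genes as lower and 12.2% as higher in CD8+ Tc, and the 5 genes that passed the filter on low counts were all called lower. In such sums, fewer cells of a kind and less RNA per cell cannot be told apart. The 6 genes were chosen because their levels differ between Tc states of these same data. Their calls are therefore no independent support for a lineage difference. Klf2 had 147, 228, 342 and 341 CPM in CD8+ Tc and 257, 293, 618 and 520 CPM in CD4+ Tc, and fell by 0.60 ± 0.08 on the log2 scale (SE, n = 4 pairs, edgeR adjusted p = 5.15e-05). S1pr1 had 34.5, 55.6, 83.0 and 36.7 CPM against 105, 115, 190 and 85.6 CPM, and its log2 difference was −1.21 ± 0.09 (edgeR adjusted p = 4.20e-07). Each was lower in CD8+ Tc in 4 of 4 libraries.

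Cd69 showed the largest of these differences, with 30.7, 49.0, 35.5 and 42.1 CPM in CD8+ Tc and 137, 99.2, 91.4 and 96.2 CPM in CD4+ Tc, which did not overlap (log2 difference −1.41 ± 0.15, edgeR adjusted p = 1.06e-05). Without Havcr2fl/fl;E8icre/+ replicate 1 it was −1.10. Klf3 differed by −0.69 ± 0.11 (edgeR adjusted p = 0.000300) and S1pr4 by −0.47 ± 0.08 (edgeR adjusted p = 0.00108), each lower in 4 of 4 libraries. These 5 calls were made under every alternative run. S1pr5 had 2.46, 4.77, 2.52 and 1.45 CPM in CD8+ Tc and 1.02, 0, 0 and 0 CPM in CD4+ Tc, and did not pass the filter on low counts. A count of 0 in CD4+ Tc of Havcr2fl/fl replicate 2 allows up to 2.89 CPM, above its CD8+ value, so a direction was not established in that mouse.

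**Figure D4:**
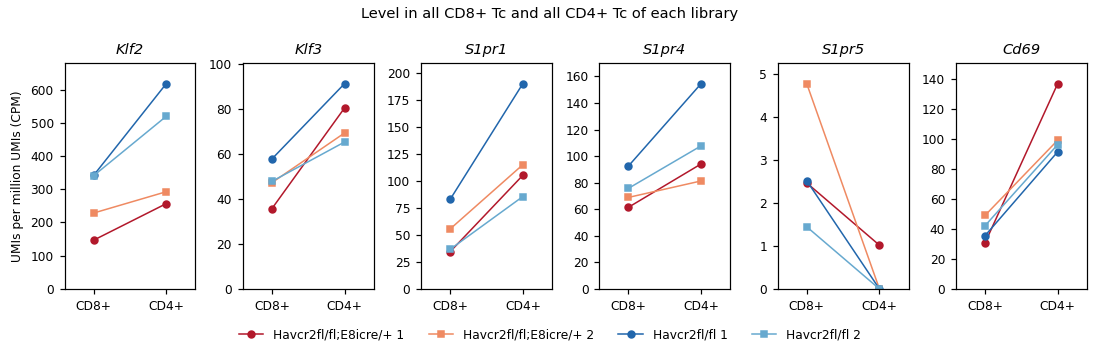
Level of each gene (CPM, linear axis from 0) in all CD8+ Tc and all CD4+ Tc of each library, with a line joining the 2 values of a mouse. Klf2, Klf3, S1pr1, S1pr4 and Cd69 were lower in CD8+ Tc in all 4 mice, and S1pr5 had 7 to 34 UMIs per library in CD8+ Tc and 0 to 3 in CD4+ Tc.

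State by state the lineage difference was not the same for each gene. In precursor exhausted-like CD8+ Tc, S1pr1 was 0.455 to 0.505 times its level in precursor memory-like CD4+ Tc of the same library, Klf3 0.366 to 0.536 times and Cd69 0.665 to 0.819 times, lower in 4 of 4 libraries for all 3. Klf2 was lower in 2 of 4, with a ratio of 0.599 to 1.17. S1pr1 was also lower in effector-like CD8+ than in cytotoxic-like CD4+ Tc (0.234 to 0.617 times, 4 of 4 libraries) and in CD8+ than in CD4+ G2 and M phase-like cells (0.257 to 0.520 times, 3 of 3). The last 2 clusters are not closely matched, since 6 erythroid marker genes summed to a mean of 414 CPM in the CD8+ and 4341 CPM in the CD4+ cluster. Between short-term effector-like CD8+ Tc and cluster 3 of CD4+ Tc, the states with the most Klf2, Klf3 was 1.43 to 2.23 times higher in CD8+ Tc, and Klf2 (0.938 to 1.36) and S1pr1 (0.600 to 1.27) were on both sides of 1. Cluster 3 is unnamed and this pair shares its place in the Klf2 order, so these ratios do not compare states matched by markers.

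Other genes of the pathway were read from lists of general knowledge. Over all genes tested, 12.4% were called lower and 12.2% higher in CD8+ Tc, 24.5% in either direction. Of 10 tested genes upstream of Klf2, 3 were called higher in CD8+ Tc, namely Mef2a (log2 difference 0.92 ± 0.08, edgeR adjusted p = 1.26e-06), Foxo3 (0.63 ± 0.13) and Mef2d (0.36 ± 0.09), and 0 lower. The MEF2 factors bind the Klf2 promoter and FOXO3 is a relative of FOXO1. The list's median was 0.20, beside 0.0035 over all genes tested. Of 7 other KLF factors, Klf10 was higher (0.77 ± 0.12) and Klf13 (−0.39 ± 0.09) and Klf6 (−0.37 ± 0.07) were lower, with a median of −0.023. Of 6 genes of S1P metabolism and other S1P receptors, edgeR called 0, with Cers2 the nearest (−0.22 ± 0.08, edgeR adjusted p = 0.0662). Of 18 genes of receptor signaling and internalization 2 were higher, the receptor kinases Grk2 (0.23 ± 0.05) and Grk6 (0.24 ± 0.07), and 2 lower, Gna13 (−0.37 ± 0.07) and Rac2 (−0.33 ± 0.05). Calls among these 18 genes were near the share over all genes and do not set this list apart.

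Lymph node homing genes were called lower in 7 and higher in 3 of 13, with a median of −0.67. Over all genes tested, 12.4% were called lower and 12.2% higher. The most reduced were Il6ra (−3.27 ± 0.35), the homing chemokine receptor Ccr7 (−2.43 ± 0.24, 2.61 against 14.3 CPM) and the survival cytokine receptor Il7r (−1.92 ± 0.09, 154 against 583 CPM), and Cd27, Itgb2 and Itga4 were higher. Residency genes were called lower in 6 and higher in 3 of 12, with Itgae (−3.48 ± 0.27), Ccr8 (−2.18 ± 0.29) and P2rx7 (−1.04 ± 0.15) lower and Runx3 (1.31 ± 0.07), Itga1 (1.20 ± 0.16) and Cxcr6 (0.75 ± 0.08) higher. Genes of circulating effector cells and factors upstream of S1pr5 were higher in 6 and lower in 1 of 7, led by Klre1 (2.85 ± 0.21), Eomes (1.72 ± 0.15) and Cx3cr1 (1.34 ± 0.14), with Klrg1 lower (−1.54 ± 0.18).

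Activation genes moved with Cd69 between lineages: 7 of 12 were called lower and 2 higher in CD8+ Tc, with Il2ra (−3.04 ± 0.19), Tnfrsf4 (−2.74 ± 0.08) and Icos (−1.68 ± 0.07) lower, Tnfrsf9 (1.08 ± 0.17) and Myc (0.84 ± 0.20) higher, and a median of −1.04. Over all genes tested, 12.4% were called lower and 12.2% higher. The summed level of the 12 activation genes was 335 to 448 CPM in CD8+ Tc and 842 to 1039 CPM in CD4+ Tc. Il2ra and Tnfrsf4 are also genes of regulatory Tc, which were counted among CD4+ Tc. Of 12 tested genes that rise during tissue dissociation, 7 were lower and 1 (Ier3) higher in CD8+ Tc, with a median of −0.26 and summed levels of 2516 to 3453 against 2853 to 4127 CPM. Their part in the difference in Cd69 was not tested.

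Between libraries labelled Havcr2fl/fl;E8icre/+ and Havcr2fl/fl, none of the 6 genes was called, and Klf2 came nearest to a call in both lineages. S1pr5, with 3 UMIs in CD4+ Tc, did not pass the filter on low counts there and was not tested. In CD8+ Tc 3 of 10889 genes were called (0.0276%), namely Prdm16 and Xlr as higher and Tigit as lower in Havcr2fl/fl;E8icre/+. In CD4+ Tc 0 of 9669 (0%) were called by edgeR, and DESeq2 called 5. There 304 genes had an unadjusted edgeR p under 0.05, a smaller share of those tested than 0.05. Klf2 had a log2 difference of −0.89 ± 0.25 in CD8+ Tc (edgeR adjusted p = 0.999) and of −1.10 ± 0.23 in CD4+ Tc (edgeR adjusted p = 0.459). Both Havcr2fl/fl;E8icre/+ libraries lay below both Havcr2fl/fl libraries in CD8+ Tc and in CD4+ Tc, where the gene was not targeted. The same order was seen for 11.2% of genes in CD8+ Tc, among them also Klf3 and S1pr4, and for 12.2% in CD4+ Tc, among them also S1pr4.

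**Figure D5:**
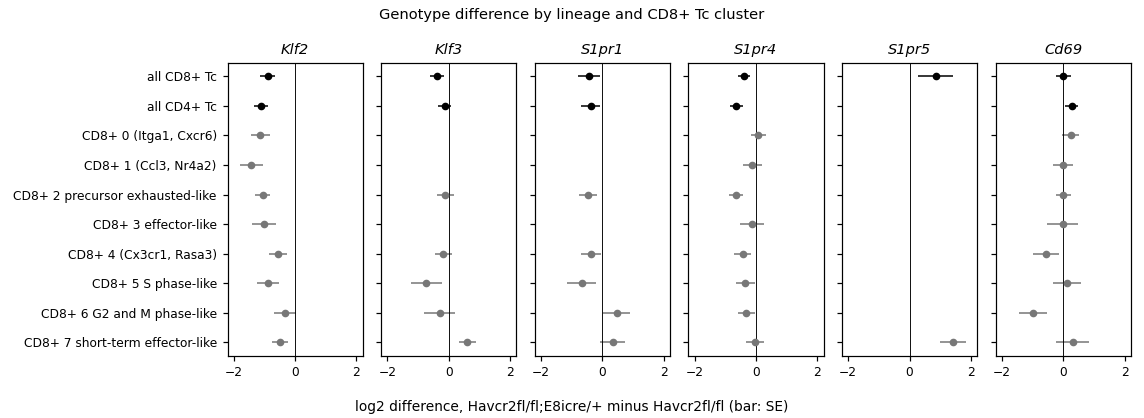
Log2 difference (Havcr2fl/fl;E8icre/+ minus Havcr2fl/fl, with SE, from edgeR) for each gene in all CD8+ Tc, all CD4+ Tc (black) and 8 CD8+ Tc clusters (gray), where the gene passed the filter on low counts. Klf2 lay below 0 in every row, and none of the points was called at an adjusted p under 0.05.

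The Klf2 difference was called in CD8+ Tc without the filter on low counts (edgeR adjusted p = 0.0216). That setting called 90 of 17188 genes, against 3 of 10889 with the filter. In CD4+ Tc the Klf2 difference was called by DESeq2 (adjusted p = 0.0194), which called 5 of 9669 genes. It was also called there without the filter (edgeR adjusted p = 0.00777), a setting that called 51 of 15940 genes. Without Havcr2fl/fl;E8icre/+ replicate 1, the library that kept Havcr2 RNA, it was −0.57 in CD8+ Tc and −0.97 in CD4+ Tc, and was called in neither. In the other genes the CD8+ difference was −0.38 ± 0.22 for Klf3, −0.43 ± 0.36 for S1pr1, −0.40 ± 0.19 for S1pr4, 0.84 ± 0.56 for S1pr5 and 0.0076 ± 0.26 for Cd69, and without that library −0.15, −0.09, −0.28, 1.29 and 0.35. In CD4+ Tc it was −0.13 ± 0.21 for Klf3, −0.38 ± 0.31 for S1pr1, −0.64 ± 0.22 for S1pr4 and 0.28 ± 0.21 for Cd69, and without that library −0.19, −0.28, −0.70 and 0.072. S1pr1 turned to 0.27 in CD8+ Tc and 0.31 in CD4+ Tc without Havcr2fl/fl replicate 1. Cd69 was higher in both Havcr2fl/fl;E8icre/+ libraries in CD4+ Tc, an order seen for 19% of genes there and for 15.6% in CD8+ Tc.

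Klf2 also kept its order within states. Both Havcr2fl/fl;E8icre/+ libraries were below both Havcr2fl/fl libraries in 7 of 8 CD8+ Tc states, the exception being G2 and M phase-like cells at 156, 350, 281 and 359 CPM. Of 3241 genes tested in all 8 states, 10 (0.309%) had that order in at least 7. In CD4+ Tc it held in 4 of 4 states, as for 19 of 4922 genes with a mean of at least 20 CPM in each (0.386%). Both cutoffs were set at the counts of Klf2 itself, a gene chosen with results known. The states of 1 library share a mouse, are not replicates, and are parts of the library sums in which Klf2 already had this order. These 2 shares are therefore a description and no independent support for a difference. An exact two-sided permutation test of 2 against 2 libraries cannot go below p = 0.333.

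The log2 difference of Klf2 was −1.13 ± 0.31 in cluster 0, −1.42 ± 0.38 in cluster 1, −1.05 ± 0.25 in precursor exhausted-like cells (edgeR adjusted p = 0.291, the lowest over the states), −1.0 ± 0.39 in effector-like cells and −0.88 ± 0.37 in S phase-like cells. It was −0.55 ± 0.29 in cluster 4, −0.50 ± 0.27 in short-term effector-like cells and −0.34 ± 0.36 in G2 and M phase-like cells. Without Havcr2fl/fl;E8icre/+ replicate 1, which kept Havcr2 RNA, it was −0.76 in cluster 0, −0.80 in cluster 1, −1.32 in precursor exhausted-like cells, −0.63 in effector-like cells and −0.68 in short-term effector-like cells. It was then near 0 in cluster 4 (−0.18) and S phase-like cells (−0.18) and turned to 0.18 in G2 and M phase-like cells, and Klf2 was called in none of the 8 states. Calls over all genes within a state were 7 of 7039 in precursor exhausted-like cells (0.0994%), 5 of 7193 in S phase-like cells (0.0695%) and 0% in the other 6 states by edgeR. In those 6 states 110 to 330 genes had an unadjusted p under 0.05, in each a smaller share of the genes tested than 0.05. With all 4 libraries, none of the 6 genes was called in any state in which it passed the filter on low counts. S1pr5 passed it only in short-term effector-like cells. With a different library left out, Klf2 was called in cluster 0 (−1.64 without Havcr2fl/fl;E8icre/+ replicate 2, −1.39 without Havcr2fl/fl replicate 2). It was also called in S phase-like cells (−2.09 without Havcr2fl/fl;E8icre/+ replicate 2) and in precursor exhausted-like cells (−1.31 without Havcr2fl/fl replicate 1). Each of these fits left 1 library in a genotype, so these calls are no test.

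The share of CD8+ Tc in clusters 4 and 7, where Klf2 was highest, was 12.1%, 12%, 20.2% and 15.2%. With each of the 8 states given equal weight, the log2 ratio of the genotype means was −0.60 for Klf2, −0.064 for S1pr1, −0.21 for S1pr4, 1.51 for S1pr5 and 0.018 for Cd69, and Klf3 turned to 0.11. In CD8+ Tc the summed dissociation genes were at 2633, 2953, 2516 and 3453 CPM and the activation genes at 405, 365, 335 and 448 CPM, both overlapping between genotypes. In each of the 9 gene lists, 0 genes were called between genotypes in either lineage by edgeR.

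S1pr5 went the other way in short-term effector-like cells, where both Havcr2fl/fl;E8icre/+ libraries (19 and 27 UMIs) were above both Havcr2fl/fl libraries (9 and 6 UMIs), with a log2 difference of 1.41 ± 0.42 that was not called (edgeR adjusted p = 0.996). That order was seen for 636 of the 3375 genes tested in these cells (18.8%), Klf3 among them. S1pr5 itself, with 9 and 6 UMIs in the Havcr2fl/fl libraries, passed the filter on low counts only through the libraries in which it was high. The fit and this share are therefore no independent support for its difference. The S1pr5 difference was 1.65 without Havcr2fl/fl;E8icre/+ replicate 1. After thinning, the share of these cells with S1pr5 was 16.9%, 11.9%, 2.94% and 4.92%. Klf3 differed by 0.61 ± 0.28 in the same cells and was not called.

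The genotype effect was compared directly between lineages, since E8i-driven Cre acts in CD8+ cells. Of 10893 genes, 2 (0.0184%), Tigit and Trat1, had an effect in CD8+ Tc that differed from that in CD4+ Tc, and none of the 6 genes was among them. The difference of effects was 0.18 ± 0.15 for Klf2, −0.26 ± 0.21 for Klf3, −0.084 ± 0.18 for S1pr1, 0.24 ± 0.16 for S1pr4 and −0.27 ± 0.30 for Cd69. For Klf2, whose genotype difference was itself not called in either lineage, no difference of effects between CD8+ and CD4+ Tc was shown. With 2 libraries per genotype, this does not show that the effects are equal. Without Havcr2fl/fl;E8icre/+ replicate 2 the difference of effects for Cd69 was −0.85, from a fit with 1 library left in that group, which is no test.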

How the data were processed

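The authors prepared 10x 3′ libraries of splenic Tc and deposited raw UMI counts per gene and cell, made with Cell Ranger 6.1.2 on mm10 per the labels. An antibody tag for donor cells was not used here, so cells were not restricted to donor cells. Per library, 17693991 to 55045903 UMIs were counted. Barcodes under 500 genes or 1000 UMIs, or over 10% in mitochondrial UMIs, were dropped, which left 11632 cells, and Scrublet (scanpy 1.11.5) took out 125 more as doublets. Calls were uneven (2 in Havcr2fl/fl;E8icre/+ replicate 1, 109 in Havcr2fl/fl replicate 2), so removal at an expected rate was an alternative. CD8+ and CD4+ Tc were clustered apart in Seurat 5.3.0 (CCA integration, resolution 0.3 and 0.2, members left out). States may differ from the study's own since names were rebuilt.

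UMIs were summed per library and class. Sums were tested with edgeR 4.0.16 (quasi-likelihood, TMM, filterByExpr, Benjamini-Hochberg over all genes, threshold 0.05), checked on simulated data, and with DESeq2 1.42.0 as an alternative. Each library is 1 mouse. Levels are CPM, a rate that is not divided by transcript length, since a 3′ assay counts ends. The 6 genes and all lists were chosen with earlier results of these data known. From lists, every gene called was named where 5 or fewer were called, otherwise up to 3 per direction with the largest log2 difference. Positions come from GENCODE mouse release 21. Same-numbered libraries did not deviate together (correlation −0.13 in CD8+ and −0.07 in CD4+ Tc).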

Additional observations from a re-analysis of the deposited data

Results flagged for a closer look

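Of 73 groups of 4 library values tested, 5 had 1 library farther from the rest than Dixon's 95% critical value for 4 samples allows, and chance alone gives about 1 in 20. Each group spans both genotypes. In S phase-like CD8+ Tc, Klf3 was low in Havcr2fl/fl;E8icre/+ replicate 1 at 9.26 CPM. In Th1-like CD4+ Tc, Klf3 (81.8 CPM) and S1pr1 (202 CPM) were high in Havcr2fl/fl replicate 1. Cd69 was high in Havcr2fl/fl;E8icre/+ replicate 1, at 361 CPM in Th1-like CD4+ Tc and 137 CPM in all CD4+ Tc.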

How the results depend on the processing

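The 5 lineage calls (Klf2, Klf3, S1pr1, S1pr4, Cd69) were made under all alternatives run, with 1501 genes called by DESeq2 and 1076 without the library block. With 2 libraries per genotype, counts of genotype calls moved: without the low-count filter 90 in CD8+ Tc, 51 in CD4+ Tc and 56 for the difference of effects, and leaving out 1 library in turn gave 1 to 15, 5 to 28 and 2 to 63, and 100 to 197 over CD8+ states against 12. A fit with 1 library left out keeps 1 library in a genotype, so its calls are no test. In CD4+ Tc, DESeq2 called 5, keeping doublets 1 and lineage by cluster 2, and for the difference of effects the strict cell filter called 4 and lineage by cluster 7. Replicate numbers only share a number: the replicate block called 0 in CD8+ Tc, 5 in CD4+ Tc and 69 within states, and crossed pairing, chosen after seeing the data, 61. Klf2 was then called (−0.93), and with the replicate block also in clusters 1 and 2 (−1.41 and −1.05). Cd69 in CD8+ Tc, near 0, turned to −0.072 (strict filter), −0.010 (doublets kept), −0.0020 (expected doublet rate), −0.012 (lineage by cluster), −0.023 (replicate block) and −0.036 (crossed), and over left-out libraries ranged from −0.42 to 0.35. Klf3 turned to 0.11 with equal state weights in CD8+ Tc and to 0.12 in CD4+ Tc with lineage by cluster.
Leaving out 1 library in turn, S1pr1 in CD8+ Tc ranged from −0.92 to 0.27, and in CD4+ Tc Klf3 from −0.33 to 0.13 and S1pr1 from −0.83 to 0.31, each turned without Havcr2fl/fl replicate 1. The difference of effects ranged from −0.047 to 0.39 for Klf2, turned without Havcr2fl/fl;E8icre/+ replicate 2. It ranged from −0.58 to 0.028 for Klf3, −0.38 to 0.16 for S1pr1 and −0.85 to 0.28 for Cd69, turned without Havcr2fl/fl;E8icre/+ replicate 1, as was Klf2 in cluster 6 (−1.13 to 0.18).
State levels relative to the lineage moved for short-term effector-like S1pr5 at lower resolution (2.96) and without integration (3.36), and Cd69 turned to −0.13 at lower resolution. Without integration, precursor exhausted-like Klf2, Klf3, S1pr1 and S1pr4 were 0.070, −0.24, 0.54 and −0.41, and precursor memory-like Klf2, Klf3, S1pr1, S1pr4 and Cd69 −1.15, −0.33, −0.55, −0.60 and 0.77. With the members kept in clustering, precursor memory-like Klf2 and S1pr1 were 0.41 and 0.84. As thinned shares, Cd69 was 0.82 in precursor exhausted-like cells and −0.12 in precursor memory-like cells, and Klf2 there 0.47. Co-detection with Klf2 in precursor exhausted-like cells rose without thinning to 52.2 (S1pr1), 25.2 (S1pr4) and 38.2 (Klf3) percentage points, and S1pr1 with Cd69 turned to 5.82 at 3000 UMIs. The cause of these moves was not tested. Lower resolution gave 1 CD4+ cluster and no value.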
